A study of Mus musculus with 12 samples.

Results

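A panel of Sertoli cell genes is used to gauge how much RNA of the supporting cells of the testis came along with germ cells. The panel holds 9 of the 20345 Ensembl genes of the deposited table: Clu, Sparc, Sox9, Wt1, Amh, Gata4, Inhbb, Ctsl and Cst9. They were chosen by their known expression in Sertoli cells, as Ensembl IDs, with the RPKM values of the inputs and IPs already known, so those values are given as a description and none as a test. The pairing of IDs with symbols comes from that list. The deposited table gives IDs only, and the reference gene table used here holds no Ensembl IDs.

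The study sequenced RNA bound to MIWI, the mouse PIWI protein that carries the piRNAs of late meiotic male germ cells, after immunoprecipitation (IP), together with the input RNA of the same material. The labels give late spermatocytes of 3 genotypes: Miwi ADH/-, in which the only remaining copy carries the ADH allele, known from earlier work as a mutation of the catalytic site; Miwi -/-, which lacks the protein, so that its IP is the antibody background; and Miwi +/-, the heterozygous control. All 3 genotypes carry at least 1 null allele, and no age is given in the labels. The RNA of the targeted gene itself, which would check the genotypes, is not analysed here, because its ID is not named. The labels describe 12 samples, 2 in each of 6 groups, but the values come as 1 column per group, so there is no spread between replicates, no difference carries a p-value, and the intervals below cover counting error only. The labels name testes or sorted cells as the source of RNA, without assigning either to a sample.

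Sertoli cells are the somatic cells of the seminiferous tubule that surround and feed the developing germ cells. They secrete fluid, carrier proteins, proteases and hormones, and their identity is set by a small group of transcription factors. Their cytoplasm wraps the germ cells, and their genes are commonly read as a check on the purity of germ cell fractions. In bulk RNA, fewer Sertoli cells and less RNA per Sertoli cell cannot be told apart. Several of the listed genes are also expressed elsewhere in the testis: Sparc and Gata4, for example, are known in Leydig cells too. Further Sertoli genes and marker lists of Leydig, peritubular, immune and germ cells were drawn up by symbol and could not be matched to the IDs, so they are not analysed here.

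Values are RPKM, that is, reads divided by gene length in kilobases and by the column's total in units of 1000000. Each gene's RPKM steps in units of 1 read, and the reads behind each value were recovered from those steps. The listed genes held 761525 to 3706479 reads in the IPs and 2627634 to 3918947 in the inputs, with the fewest in the Miwi -/- IP. Of the 9 genes, 6 (Clu, Sparc, Wt1, Gata4, Ctsl and Cst9) had at least 1 RPKM in at least 2 columns, as did 12246 genes of the table. Wt1 and Gata4 met that minimum only through the columns in which they were highest. Sox9, Amh and Inhbb did not meet it.

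RefSeq's promoter table (build GRCm38.p6) held an entry for 4 of the 9 genes: Sparc, Inhbb, Ctsl and Cst9. Of the abundant secreted-protein genes described next, Sparc, Ctsl and Cst9 are shown, because their inputs lay in the same order over the genotypes. Each window runs from 250 bases before the transcription start to 50 bases after it, written 5′ to 3′ on the gene's strand. Capitals mark matches, on either strand, to GATAA, the core read by GATA factors such as Gata4, or to AACAAT, a core read by SOX factors such as Sox9.
Sparc promoter, chr11:55420031-55420330, minus strand: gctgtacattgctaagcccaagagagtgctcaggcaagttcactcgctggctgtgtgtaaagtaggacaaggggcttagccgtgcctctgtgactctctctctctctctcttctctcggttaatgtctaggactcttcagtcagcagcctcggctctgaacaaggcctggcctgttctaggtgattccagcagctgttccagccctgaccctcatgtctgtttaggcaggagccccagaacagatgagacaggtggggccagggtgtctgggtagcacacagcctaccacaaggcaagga
Ctsl promoter, chr13:64370471-64370770, minus strand: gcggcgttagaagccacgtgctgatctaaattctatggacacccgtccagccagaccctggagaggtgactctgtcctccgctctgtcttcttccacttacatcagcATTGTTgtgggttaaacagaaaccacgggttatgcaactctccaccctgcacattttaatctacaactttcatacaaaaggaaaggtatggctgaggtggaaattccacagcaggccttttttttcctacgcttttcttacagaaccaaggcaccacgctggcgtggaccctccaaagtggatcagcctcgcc
Cst9 promoter, chr2:148834897-148835196, plus strand: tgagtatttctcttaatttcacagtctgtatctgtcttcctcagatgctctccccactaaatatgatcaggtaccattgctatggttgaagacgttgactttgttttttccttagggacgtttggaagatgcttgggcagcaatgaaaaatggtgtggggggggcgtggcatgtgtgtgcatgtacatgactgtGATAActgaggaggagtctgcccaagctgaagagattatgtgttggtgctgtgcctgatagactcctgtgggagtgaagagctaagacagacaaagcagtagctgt
The Cst9 window held 1 GATAA and the Ctsl window 1 AACAAT, while the Sparc window held neither. The AACAAT lies on the strand opposite to the one written, so its capitals read ATTGTT. Among 32841 promoter windows of the same length, 25.4% held GATAA and 10.7% held AACAAT. Neither TGANTCA, the AP-1 core (in 7.81% of windows), nor TATAAA, a core promoter element (13.6%), occurred in any of the windows shown. A match is a description of the letters and shows no binding, and these 3 promoters share no motif among those searched.

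Summed over the panel, RNA of the listed genes was lowest in the Miwi ADH/- input and highest in the Miwi -/- input. The excess in Miwi -/- was carried by Clu, Sparc, Ctsl and Cst9. Summed over the 9 genes, the inputs had 27.8 RPKM in Miwi ADH/-, 146 RPKM in Miwi -/- and 82.0 RPKM in Miwi +/-. The Miwi ADH/- sum was 2.95-fold lower than that of Miwi +/- and 5.27-fold lower than that of Miwi -/-, and the Miwi -/- sum was 1.79-fold higher than that of Miwi +/-. Clu contributed the most to the input sums. Without it they were 16.7, 89.1 and 48.7 RPKM in Miwi ADH/-, Miwi -/- and Miwi +/-, in the same order. The other 5 genes (Sox9, Wt1, Amh, Gata4 and Inhbb) summed to 0.455 RPKM in the Miwi ADH/- input, 2.97 RPKM in the Miwi -/- input and 2.76 RPKM in the Miwi +/- input, 6.05-fold lower in Miwi ADH/- and at 1.08 times the Miwi +/- level in Miwi -/-. Counted per 1000000 reads in listed genes, which does not depend on the scaling of RPKM, the panel without Amh took 61.7 reads in the Miwi ADH/- input (95% interval, Clopper-Pearson, 52.5 to 71.9), 290 in the Miwi -/- input (274 to 308) and 170 in the Miwi +/- input (158 to 184). These intervals do not overlap.

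**Figure D1:**
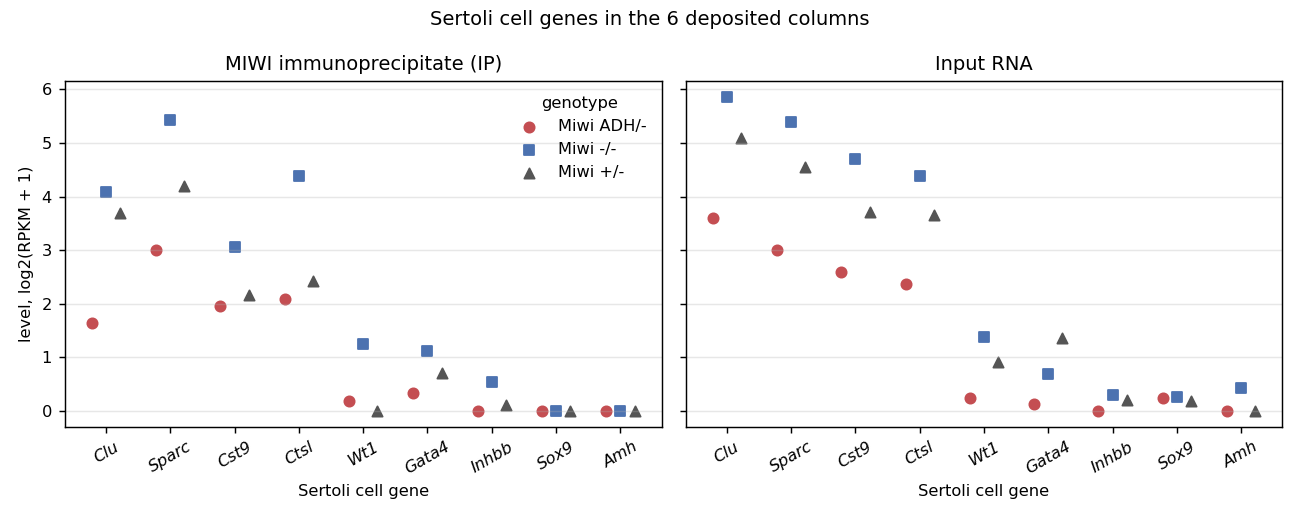
Level of each Sertoli cell gene as log2(RPKM + 1) in the MIWI IPs (left) and the inputs (right), with 1 point per genotype and gene; each point is 1 deposited column. Clu, Sparc, Cst9 and Ctsl stand highest in Miwi -/- and lowest in Miwi ADH/- in both panels, and the other 5 genes stay below 2 RPKM throughout.

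Of the secreted proteins, Clu (ENSMUSG00000022037) encodes clusterin, an extracellular chaperone that is among the major secretory products of Sertoli cells. Its inputs had 11.1 RPKM in Miwi ADH/- (54 reads), 57.2 RPKM in Miwi -/- (361 reads) and 33.2 RPKM in Miwi +/- (221 reads). Relative to Miwi +/- the level was lower in Miwi ADH/-, at a ratio of 0.334 (95% counting interval 0.243 to 0.451), and 1.72-fold higher in Miwi -/- (1.45 to 2.05). Both comparisons use the same Miwi +/- column, here and for each gene below. By RPKM, Clu ranked 4820th of all genes in the Miwi ADH/- input, 1340th in the Miwi -/- input and 2248th in the Miwi +/- input.

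Sparc (ENSMUSG00000018593), which encodes a collagen-binding glycoprotein of the extracellular matrix, had 7.04 RPKM in the Miwi ADH/- input (49 reads), 41.2 RPKM in the Miwi -/- input (371 reads) and 22.3 RPKM in the Miwi +/- input (212 reads). It was 3.17-fold lower in Miwi ADH/- than in Miwi +/- (2.31 to 4.42) and 1.85-fold higher in Miwi -/- (1.56 to 2.20). The order of the inputs was that of Clu, and the sizes lay within each other's counting intervals.

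The remaining abundant pair encodes a protease and a member of a protease inhibitor family. Ctsl (ENSMUSG00000021477) encodes cathepsin L, a lysosomal cysteine protease whose precursor rat Sertoli cells are known to secrete. Its inputs had 4.19 RPKM in Miwi ADH/- (34 reads), 20.0 RPKM in Miwi -/- (210 reads) and 11.6 RPKM in Miwi +/- (129 reads), which is 2.78-fold lower in Miwi ADH/- than in Miwi +/- (1.89 to 4.18) and 1.72-fold higher in Miwi -/- (1.37 to 2.15). Cst9 (ENSMUSG00000027445) encodes testatin, a cystatin-related protein known from the early testis. Its inputs had 5.04 RPKM in Miwi ADH/- (19 reads), 25.0 RPKM in Miwi -/- (122 reads) and 12.0 RPKM in Miwi +/- (62 reads). Cst9 was 2.39-fold lower in Miwi ADH/- than in Miwi +/- (1.41 to 4.23) and 2.08-fold higher in Miwi -/- (1.52 to 2.87). All of these intervals exclude equality, and the ratios of these 4 genes to Miwi +/- ran from 0.315 to 0.418 in Miwi ADH/- and from 1.72 to 2.08 in Miwi -/-.

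The transcription factors gave few reads, at most 24 in any input. Wt1 (ENSMUSG00000016458), needed for Sertoli cells to form and to keep their identity, had 0.173 RPKM in the Miwi ADH/- input (2 reads), 1.60 RPKM in the Miwi -/- input (24 reads) and 0.887 RPKM in the Miwi +/- input (14 reads). The ratio of Miwi ADH/- to Miwi +/- was 0.195 (0.0215 to 0.849), and that of Miwi -/- to Miwi +/- was 1.81, with an interval of 0.898 to 3.78 that includes equality. The order of the 3 inputs was that of the secreted proteins. Gata4 (ENSMUSG00000021944), a zinc finger factor of Sertoli and Leydig cells, had 0.0978 RPKM in the Miwi ADH/- input (1 read), 0.604 RPKM in the Miwi -/- input (8 reads) and 1.58 RPKM in the Miwi +/- input (22 reads). Unlike the 4 abundant genes it was lower in Miwi -/- than in Miwi +/-, at a ratio of 0.384 (0.148 to 0.894). Sox9 (ENSMUSG00000000567), a factor of Sertoli cell differentiation, had 3 reads in the Miwi ADH/- input, 4 in the Miwi -/- input and 3 in the Miwi +/- input. These are 0.185, 0.190 and 0.135 RPKM, and no difference was detectable at this depth.

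The hormone genes were low as well. Inhbb (ENSMUSG00000037035) encodes the beta B subunit of inhibin B, which restrains follicle-stimulating hormone. It was listed at 0 in the Miwi ADH/- input, where 3 reads would be worth 0.128 RPKM, and had 0.232 RPKM in the Miwi -/- input (7 reads) and 0.157 RPKM in the Miwi +/- input (5 reads). The Miwi -/- level was 1.80 times that floor, and the counting interval allowed a level in Miwi ADH/- as little as 1.11-fold below that of Miwi -/-. Amh (ENSMUSG00000035262), the anti-Müllerian hormone gene, which is strongly expressed in immature Sertoli cells and weakly in adult ones, was above 0 in the Miwi -/- input only, at 0.338 RPKM. Its reads could not be recovered, because the steps of a gene seen in 1 column have nothing to be set against.

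**Figure D2:**
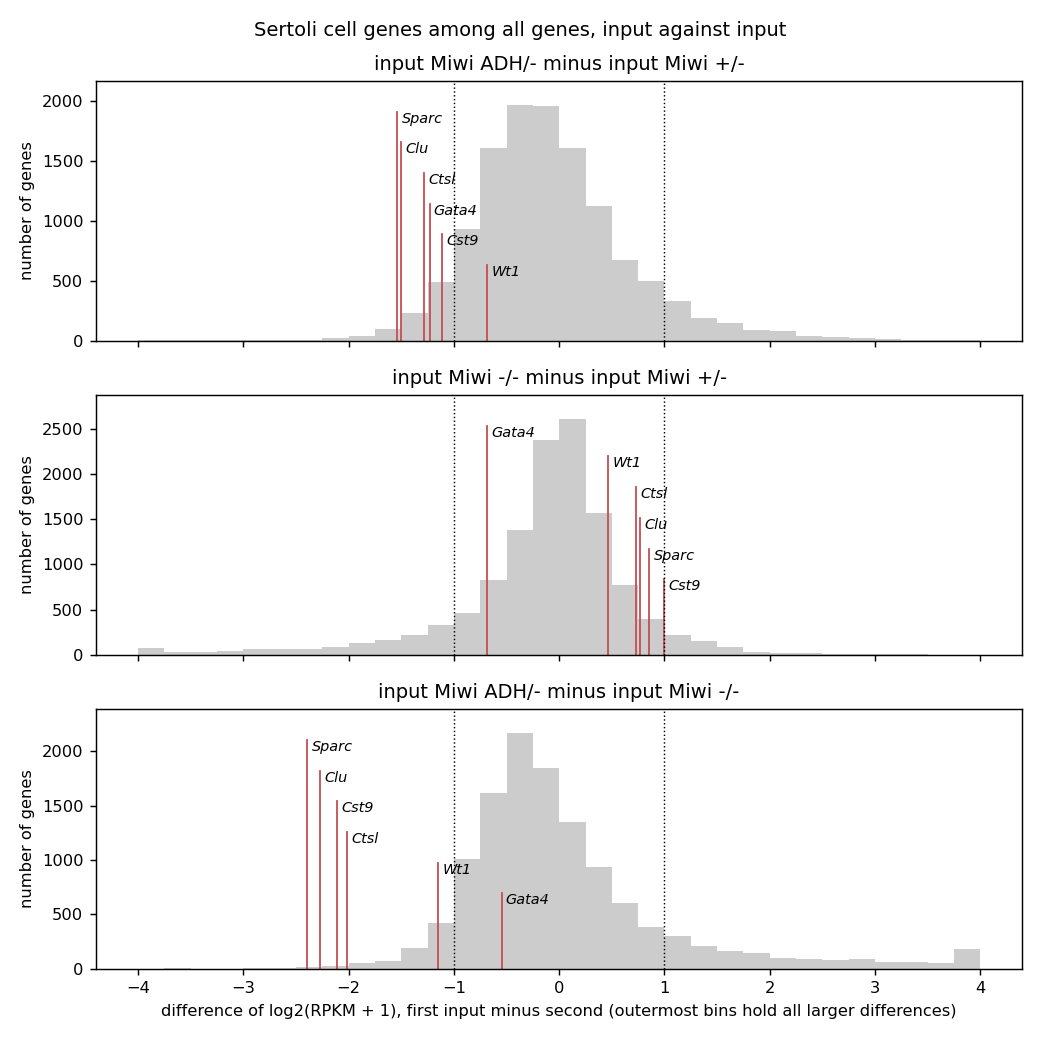
Histograms of the difference of log2(RPKM + 1) between 2 inputs over 12246 genes (grey), with the 6 Sertoli cell genes that met the minimum level marked by red lines, whose heights only separate the labels; dotted lines mark 2-fold. Sparc, Clu, Ctsl and Cst9 lie at -1.54 to -1.11 in Miwi ADH/- minus Miwi +/- and at 0.73 to 0.99 in Miwi -/- minus Miwi +/-, while Gata4 lies at -0.68 in the second comparison.

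Set among all genes on the log2(RPKM + 1) scale, 5 of the 6 genes that met the minimum level (Clu, Sparc, Gata4, Ctsl and Cst9) were at least 2-fold lower in the Miwi ADH/- input than in the Miwi +/- input, against 7.42% of 12246 genes, and none was 2-fold higher, against 7.8%. Their median difference was -1.26, beside -0.16 over all genes. The count falls to 3 where columns are scaled by median-of-ratios factors, against 2.83% of all genes under that scaling. Between Miwi -/- and Miwi +/- none of the 6 was 2-fold apart on this scale, where 4.47% of genes were higher and 10.6% lower. The median of the 6 was 0.75, beside -0.02 over all genes, and Cst9 at 0.99 lay just below the 2-fold line. Directly between the mutants, Miwi ADH/- was at least 2-fold below Miwi -/- for 5 of the 6 genes (Clu, Sparc, Wt1, Ctsl and Cst9), against 6.54% of all genes, and at least 2-fold above it for none, against 12.6%. The median was -2.06, beside -0.18 over all genes. Sparc, at -2.39, and Clu, at -2.27, lay below all but 0.212% and 0.286% of the 12246 genes. Because the panel was drawn up with these inputs in view, and Wt1 and Gata4 met the minimum only where they were high, these counts describe the panel and support nothing further.

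Of the 9 genes, 6 (Clu, Sparc, Wt1, Inhbb, Ctsl and Cst9) had their inputs in the order Miwi ADH/- below Miwi +/- below Miwi -/-, an order that 24.5% of the 12246 genes also had. The same order held in the IPs for 6 genes (Clu, Sparc, Gata4, Inhbb, Ctsl and Cst9), against 5.57% of the 12246 genes. Both counts include Inhbb, which did not meet the minimum level that the 12246 genes met. Wt1, in the first count, and Gata4, in the second, met it only through the columns in which they were highest. The Miwi -/- IP was among those columns for both. The panel was chosen with these values known, so the counts are descriptions.

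The IPs carried RNA of the listed genes as well, including the IP of Miwi -/-, the genotype labelled as lacking MIWI. Summed over the 9 genes, the IPs had 15.7 RPKM in Miwi ADH/-, 88.1 RPKM in Miwi -/- and 37.8 RPKM in Miwi +/-. The ratio of these sums to their own inputs was 0.564 in Miwi ADH/-, 0.602 in Miwi -/- and 0.461 in Miwi +/-. In the Miwi -/- background the direction depends on the scale. The RPKM summed over all listed genes was lower in each IP column than in its input, at 129690 against 400396 in Miwi -/-. Per 1000000 reads in listed genes the panel took 596 reads in the Miwi -/- IP (543 to 654), against 290 in its input, a ratio of 2.05. In Miwi ADH/- it took 52.3 reads in the IP (45.2 to 60.2), against 61.7 in its input. In Miwi +/- it took 147 reads in the IP (129 to 166), against 170 in its input.

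Sparc was the most abundant of the 9 genes in every IP. It had 7.00 RPKM in the Miwi ADH/- IP (94 reads), 41.9 RPKM in the Miwi -/- IP (222 reads) and 17.4 RPKM in the Miwi +/- IP (130 reads). The ratio of IP to input was 0.995 in Miwi ADH/- (0.697 to 1.44), 1.02 in Miwi -/- (0.859 to 1.21) and 0.780 in Miwi +/- (0.622 to 0.975), and these intervals overlap. Over all genes with reads in both columns, the median ratio was 0.713 in Miwi ADH/-, 0.276 in Miwi -/- and 0.543 in Miwi +/-. Measured against that median, Sparc stood 1.40-fold above it in Miwi ADH/-, 3.69-fold in Miwi -/- and 1.44-fold in Miwi +/-.

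Ctsl differed between genotypes in how much of its input level the IP held. Its IPs had 3.26 RPKM in Miwi ADH/- (51 reads), 19.9 RPKM in Miwi -/- (123 reads) and 4.36 RPKM in Miwi +/- (38 reads). The ratio of IP to input was 0.778 in Miwi ADH/- (0.494 to 1.24), 0.997 in Miwi -/- (0.792 to 1.25) and 0.375 in Miwi +/- (0.254 to 0.542). The interval of Miwi -/- does not overlap that of Miwi +/-, whereas that of Miwi ADH/- overlaps both. Between the IPs themselves Ctsl was 4.57-fold higher in Miwi -/- than in Miwi +/- (3.15 to 6.76), and the ratio of Miwi ADH/- to Miwi +/- was 0.747, with an interval of 0.481 to 1.17.

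Clu, the most abundant of the panel in every input, was lower in every IP than in its input. It had 2.13 RPKM in the Miwi ADH/- IP (20 reads), 15.9 RPKM in the Miwi -/- IP (59 reads) and 11.9 RPKM in the Miwi +/- IP (62 reads). The ratio of IP to input was 0.192 in Miwi ADH/- (0.109 to 0.326), 0.278 in Miwi -/- (0.208 to 0.367) and 0.357 in Miwi +/- (0.265 to 0.475). Cst9 had 2.89 RPKM in the Miwi ADH/- IP (21 reads), 7.33 RPKM in the Miwi -/- IP (21 reads) and 3.46 RPKM in the Miwi +/- IP (14 reads), with IP-to-input ratios of 0.573 (0.293 to 1.13), 0.293 (0.175 to 0.468) and 0.287 (0.149 to 0.519) in that order of genotypes. In the Miwi -/- background, Clu and Cst9 lay close to the median of all genes, at 1.01 and 1.06 times it, where Sparc and Ctsl lay at 3.69 and 3.61 times it. By the length that the RPKM steps imply, Cst9 and Clu are also the shortest of the 8 panel genes for which the steps give a length (all but Amh): 12.6% and 20.4% of the 12246 genes are shorter, against 36.2% for Sparc and 44.8% for Ctsl. A factor common to all reads of a gene would make its implied length too short, which was not checked for Clu or the others. The part of length in these ratios was not tested.

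**Figure D3:**
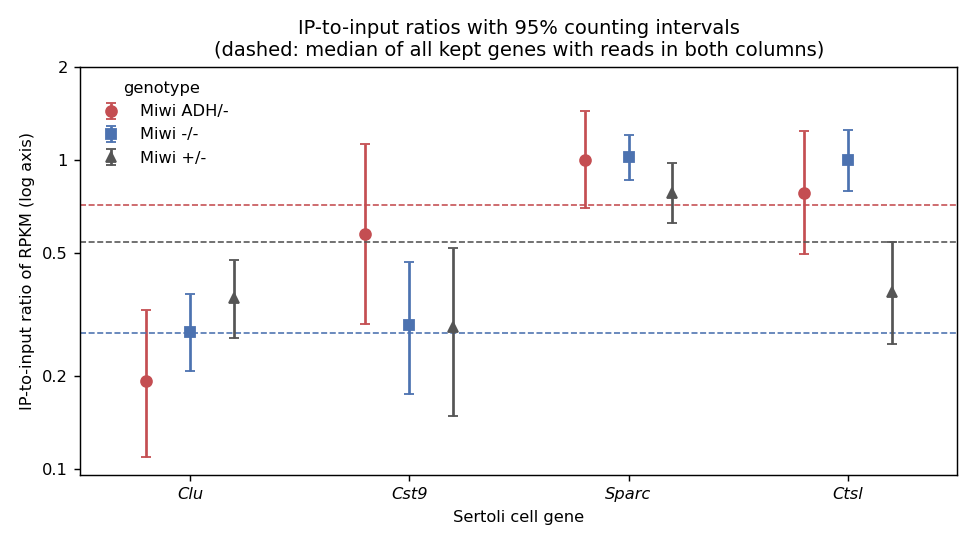
Ratio of RPKM in the IP to RPKM in the input of the same genotype (log axis) for the 4 abundant Sertoli cell genes, with 95% counting intervals; dashed lines give the median ratio of all genes with reads in both columns, 0.713 in Miwi ADH/-, 0.276 in Miwi -/- and 0.543 in Miwi +/-. Sparc lies near 1 in Miwi ADH/- and Miwi -/- and at 0.780 in Miwi +/-, where its interval excludes 1. Ctsl lies near 1 in Miwi -/- and at 0.375 in Miwi +/-, and Clu below 0.4 in all 3.

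The rare members gave few reads in the IPs. Wt1 had 0.135 RPKM in the Miwi ADH/- IP (3 reads) and 1.37 RPKM in the Miwi -/- IP (12 reads), and was listed at 0 in the Miwi +/- IP, where 3 reads would be worth 0.242 RPKM. The Miwi -/- IP level was 5.64 times that floor, and the 95% counting interval of its ratio to the Miwi +/- IP began at 3.92. Gata4 had 0.254 RPKM in the Miwi ADH/- IP (5 reads), 1.16 RPKM in the Miwi -/- IP (9 reads) and 0.638 RPKM in the Miwi +/- IP (7 reads). Inhbb was listed at 0 in the Miwi ADH/- IP and had 0.451 RPKM in the Miwi -/- IP (8 reads) and 0.0798 RPKM in the Miwi +/- IP (2 reads). Sox9 and Amh were listed at 0 in all 3 IPs. For Sox9, 3 reads would be worth 0.0958 RPKM in the Miwi ADH/- IP, 0.243 RPKM in the Miwi -/- IP and 0.172 RPKM in the Miwi +/- IP, so that its input levels could have been missed in the Miwi -/- and Miwi +/- IPs. In Miwi ADH/- the 95% counting interval of its IP-to-input ratio reached up to 1.26, so no difference was detectable there either.

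On the log2(RPKM + 1) scale, 1 of the 6 genes that met the minimum level, Clu, was at least 2-fold lower in the IP than in the input of Miwi ADH/-, where 25% of all genes were. In Miwi -/- there were 2, Clu and Cst9, against 60.9% of all genes, and in Miwi +/- there were 3, Clu, Ctsl and Cst9, against 40.6%. No gene of the panel was 2-fold higher in an IP than in its input, against 4.83% of all genes in Miwi ADH/-, 3.67% in Miwi -/- and 4.24% in Miwi +/-. The median difference of the 6 genes was -0.17 in Miwi ADH/-, -0.07 in Miwi -/- and -1.08 in Miwi +/-, beside -0.41, -1.37 and -0.77 over all genes in the same order. Measured from the median of all genes, the panel's median turns positive in Miwi ADH/-, at 0.24, and in Miwi -/-, at 1.30, and stays negative in Miwi +/-, at -0.31. The counts change with it. In Miwi -/- 4 of the 6 genes then stood at least 2-fold higher in the IP, Gata4 (1.80), Sparc (1.40), Ctsl (1.37) and Wt1 (1.23), against 23.6% of all genes, and none 2-fold lower, against 25%. Wt1 and Gata4 rest there on 12 and 9 IP reads. Both met the minimum level only by counting this same IP, so the count describes the panel and supports nothing further. In Miwi ADH/- none was 2-fold higher, against 12% of all genes, and Clu alone was 2-fold lower, at -1.54, against 13.4%. In Miwi +/- none of the 6 was 2-fold higher or lower, against 15.4% and 15.5% of all genes.

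Other genes followed the panel over the 6 columns. The profile of the 6 genes (the mean of their log2(RPKM + 1) values, each centred on its own mean) was set against 10977 genes that varied at least 0.5 times as much, and 56 of them (0.510%) had a Pearson correlation of at least 0.9 with it. The members' own correlations with it, which they helped to make, ran from 0.69 for Gata4 to 0.96 for Ctsl. The closest genes, with correlations of 0.993 and 0.980, were ENSMUSG00000039533 and ENSMUSG00000007891, which the sources used here do not name. ENSMUSG00000039533 had 0.385 RPKM in the Miwi ADH/- input, 3.45 RPKM in the Miwi -/- input and 1.98 RPKM in the Miwi +/- input, and ENSMUSG00000007891 had 1.92, 10.1 and 7.05 RPKM in the same order. The next 3 genes had correlations of 0.962 to 0.974. All points share the same 6 columns and their depths, so the correlations are descriptions.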

How the data were processed

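RNA depleted of ribosomal RNA was sequenced from MIWI IPs and inputs of late spermatocytes, and the labels give 2 samples for each of 6 groups. The submitters' processing notes name TopHat, Bowtie and the mouse build mm9. The counting tool and annotation were not given in the sources used here. RPKM values were deposited by the authors, 1 column per group; only the Miwi +/- columns carry the unit, per the file headers. It was taken to hold for the other columns, whose values step in the same proportions per gene, an assumption behind every genotype comparison. No source used here says if a column is 1 sample or both pooled.

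The relative depths of the columns were taken from the most common ratio between columns, with the small whole-number factor per column that needed the fewest reads. Reads per gene were the whole numbers that the depth-scaled values were multiples of, within 0.002 reads plus 3e-07 of their number, and 100% of the 17452 genes above 0 in more than 1 column gave whole reads. Reads of a gene that share a common factor would be understated by it, and its implied length would then be too short and its intervals too wide. With values in few columns a step can also fit by chance. Read ratios carry Clopper-Pearson 95% intervals, given the sum of both read numbers. PCR copies are not independent molecules, so intervals and floors of 3 reads cover counting error only.

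Differences are of log2(RPKM + 1), with a pseudocount of 1, which understates the change of low genes; the minimum level was 1 RPKM in at least 2 columns, and 2-fold differences were counted. All 9 genes are named, with 2 of the 5 closest others. The panel, the lists and the tests were chosen with earlier results of these data known. The lists by symbol gave no values. Alternatives were the pseudocount, the filter, 3 scalings and a subset of the panel. Scripts were tested on simulated data and ran in Python 3.11.15 with numpy 2.4.6, pandas 2.3.3, scipy 1.17.1 and matplotlib 3.10.9.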

Additional observations from a re-analysis of the deposited data

Results flagged for a closer look

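For 4 genes of the panel the inputs of the mutants lay on opposite sides of Miwi +/-, lower in Miwi ADH/- and higher in Miwi -/-, with both counting intervals excluding equality. The log2 difference of Miwi ADH/- minus Miwi -/- was -2.27 for Clu, -2.39 for Sparc, -2.02 for Ctsl and -2.11 for Cst9. In the IPs Sparc alone met the same condition, at -2.42. How many of all genes met this condition was not counted. The order alone, Miwi ADH/- below Miwi +/- below Miwi -/-, held for 24.5% of 12246 genes in the inputs and 5.57% in the IPs. The panel was chosen with these values known, so the counts are descriptions. With 1 column per group, these differences between genotypes were not tested against replicate spread, and the comparisons share the Miwi +/- column. No group has the 4 samples needed to look for a sample far from the others.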

How the results depend on the processing

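The inputs kept their direction under all alternatives run: the panel's median log2 difference was negative for Miwi ADH/- against either other genotype and positive for Miwi -/- against Miwi +/-. With median-of-ratios factors the median of Miwi ADH/- minus Miwi +/- was -0.94 and the genes 2-fold apart numbered 3, all lower, against 2.83% of all genes. For Miwi -/- minus Miwi +/- the median was 0.46 with no filter and 0.46 over the subset of Sox9, Wt1, Amh, Gata4 and Cst9; the number 2-fold apart was 2 with a pseudocount of 0.1 and 1 with a pseudocount of 0.5, measured from the median of all genes or with median-of-ratios factors. For Miwi ADH/- minus Miwi -/- the median was -1.15 with no filter and -1.15 over that subset. The cause of these shifts was not tested, except that no filter and the subset bring in or weight genes near 0.

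IP against input depended on the scaling. Measured from the median of all genes, with median-of-ratios factors and with equal column sums, the median turned positive in Miwi ADH/- (0.24, 0.032 and 0.12) and in Miwi -/- (1.30, 1.28 and 1.13). In Miwi -/- the genes 2-fold apart were then 4 under each of the first pair of scalings, in place of Clu and Cst9, lower. All 4 were higher in the IP (Sparc, Wt1, Gata4 and Ctsl), against 23.6% and 20.6% of all genes. With equal column sums they were 3, also higher (Sparc, Gata4 and Ctsl), against 16.7%. Wt1 and Gata4 met the minimum level only by counting that IP, so these counts describe the panel. In Miwi +/- the median was -0.31, -0.51 and -0.49 under these scalings, with 0 genes 2-fold apart under each, and -0.65 with no filter. Of all genes, 15.4%, 12.9% and 14.6% were 2-fold higher under these scalings and 15.5%, 17.0% and 18.2% lower. A pseudocount of 0.1 gave 5 genes 2-fold apart in Miwi +/-, all lower in the IP, against 49.1% of all genes. The RPKM summed over all listed genes was lower in each IP column than in its input. These scalings raised the median in all 3 genotypes, from -0.17 in Miwi ADH/-, -0.07 in Miwi -/- and -1.08 in Miwi +/-. It passed 0 in Miwi ADH/- and Miwi -/- only. No paired analysis was possible because the columns carry no replicate number, and no replicate could be left out for the same reason. Depth limits Sox9, Inhbb, Wt1 and Gata4, which rest on at most 24 reads in a column, and Amh, whose reads were not recovered.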

Other observations

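The ratio of 2 panel genes within a column does not depend on how columns are scaled. In the inputs the ratio of Clu to Sparc RPKM was close between genotypes: 1.57 in Miwi ADH/- (95% counting interval 1.05 to 2.37), 1.39 in Miwi -/- (1.20 to 1.61) and 1.49 in Miwi +/- (1.23 to 1.81). In the IPs it was lower, at 0.304 in Miwi ADH/- (0.178 to 0.496), 0.380 in Miwi -/- (0.280 to 0.508) and 0.681 in Miwi +/- (0.495 to 0.929), and no IP interval overlaps that of its own input. The interval of the Miwi ADH/- IP overlaps that of the Miwi +/- IP by a narrow margin. The ratio of Sparc to Ctsl RPKM was 2.15 in the Miwi ADH/- IP (1.51 to 3.08), against 1.68 in its input (1.06 to 2.68), and 2.10 in the Miwi -/- IP (1.68 to 2.65), against 2.06 in its input (1.73 to 2.45). It was 3.99 in the Miwi +/- IP (2.76 to 5.89), against 1.92 in its input (1.53 to 2.40), and only in Miwi +/- do the intervals of IP and input not overlap. These pairs were chosen after their values were seen.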
